A study of Homo sapiens with 4 samples.

Results

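The genes described here encode 10 transcription factors of the AP-1 and C/EBP groups, chosen by name from the 63677 genes of the count files. They are the FOS family (FOS, FOSB, FOSL1 and FOSL2), the JUN family (JUN, JUNB and JUND), ATF3, and the C/EBP factors CEBPB and CEBPD. RNA was sequenced from IMR90, a line of normal human lung fibroblasts, in 2 isolates named I90-10 and I90-79, which the labels place at passage 5. Control cells received a non-targeting siRNA and knockdown cells an siRNA against HMGB1, a DNA-bending chromatin protein, in both cases with the lipid reagent RNAiMAX for 72 h. Each group had 2 libraries, replicate 1 from I90-10 and replicate 2 from I90-79, and every library therefore came from transfected cells. The study's methods mention different siRNAs for IMR90, and which of them went into which library is not given in the sources used here.

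AP-1 factors bind DNA as dimers through a basic leucine zipper (bZIP), with FOS proteins pairing only with a partner such as a JUN protein and JUN proteins also pairing among themselves. FOS, FOSB and JUNB are among the members that are immediate-early genes, switched on within minutes by serum or stress, whereas FOSL1, FOSL2 and JUND last longer after a stimulus. C/EBP factors carry the same kind of zipper, and in fibroblasts both groups are known for driving matrix-degrading enzymes and inflammatory cytokines, the latter a feature of senescent cells.

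Upon HMGB1 knockdown, the members went in both directions. CEBPD was the only member called downregulated, at 2.93-fold lower on average. JUNB was 2.87-fold higher, FOSB 3.12-fold and CEBPB 1.81-fold higher on average, and these 3 were called upregulated once the isolate was a term of the fit. FOSL1, JUN, JUND and ATF3 differed by at most 1.07-fold, without passing the test. FOS (2.11-fold higher) and FOSL2 (1.37-fold lower) were not called in either fit. Levels of single genes are given in CPM, counts per 1000000 reads on tested genes after TMM scaling. A call up or down required both an adjusted p under 0.01 and a change of more than 0.6 on the log2 scale, by edgeR's quasi-likelihood test over the 15398 genes left by the filter on low counts, which all 10 members passed. SE is the standard error of a log2 change.

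The members can be set beside the sequences just upstream of their transcription starts, shown here because the 4 members with the largest increases share a short word there. Promoters from RefSeq, 250 bases before to 50 bases after the start on GRCh38.p14, were matched by symbol for 8 members, and FOSL1 and CEBPD were not matched. The 50 bases before the start are printed 5′ to 3′ on the strand of the gene, with the TATA-box word TATAAA in capitals.
FOS (chr14:75278778-75278827, plus strand): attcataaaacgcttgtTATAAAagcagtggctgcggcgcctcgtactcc
FOSB (chr19:45467946-45467995, plus strand): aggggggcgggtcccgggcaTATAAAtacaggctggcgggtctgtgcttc
JUNB (chr19:12791436-12791485, plus strand): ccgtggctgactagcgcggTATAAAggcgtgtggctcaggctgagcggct
CEBPB (chr20:50190780-50190829, plus strand): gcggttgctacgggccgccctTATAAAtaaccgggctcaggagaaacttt
JUN (chr1:58784048-58784097, minus strand): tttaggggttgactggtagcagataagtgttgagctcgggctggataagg
JUND (chr19:18281623-18281672, minus strand): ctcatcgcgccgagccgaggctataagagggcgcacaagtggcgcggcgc
FOSL2 (chr2:28392808-28392857, plus strand): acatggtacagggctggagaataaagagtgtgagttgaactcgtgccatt

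The word TATAAA began at position -33 of FOS, -30 of FOSB, -31 of JUNB and -29 of CEBPB, counted from the start, and for CEBPB at the printed one of 2 annotated starts only. The exact word was not found between 35 and 25 bases before the start of JUN, JUND or FOSL2, or before either annotated start of ATF3. The JUND window holds tataag at position -29, which differs in its last letter. Variants of the word were not searched, so its absence does not mean that a gene lacks a TATA box. Of the 11099 tested genes with a promoter in the table, 2.11% held the word in that place. Among these 234 genes, 15.4% were called upregulated and 8.12% downregulated in the fit with the isolate as a block, against 6.84% and 8.4% of the genes without it, and their median log2-fold change was 0.04 against 0.00. The 234 genes include FOS, FOSB, JUNB and CEBPB, whose increases were the reason for showing the word. The match in these members is therefore no independent check of it, nor are the shares free of them. Neither difference was tested, and the part of the word in any change was not tested. Over the whole 300 bases and both strands, the AP-1 element TGACTCA was found in FOSL2 (4.95% of 35116 promoters hold it), the related TGACGTCA in JUND (1.85%), the C/EBP word TTGCNNAA in ATF3 (10.5%) and a kappaB match in CEBPB (9.08%). The CArG box of serum response factor, held by 1.29% of promoters, was found in none of the 8, which says only that its letters are not in this window. TATAAA at any position was held by 11.5% of promoters, including a promoter of ATF3 at position -230.

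The targeted gene was checked in every library. HMGB1 was at 181 and 237 CPM in the control libraries of I90-10 and I90-79 and at 15.96 and 18.86 CPM in the knockdown libraries, a change of -3.59 on the log2 scale (SE 0.19, adjusted p = 0.0075). The reads counted on genes ranged from 29861687 to 35317010 per library, and no library was left out. All 10 fibroblast markers were tested and summed to between 19323 and 35576 CPM, with the lower sums in both I90-79 libraries. Epithelial and blood markers summed to at most 0.715 and 0.208 CPM in any library, with KRT5, KRT14, NKX2-1, CD3E and LYZ at 0 reads. The endothelial markers summed to 136 to 150 CPM, of which TEK made up 131 to 149 CPM while CDH5 was at 0 reads, and the smooth muscle and muscle markers to 22.2 to 83.0 CPM, mostly CNN1, with MYF5 and MYOD1 at 0 reads. In bulk RNA, fewer cells of a type and less RNA per cell cannot be told apart. Each isolate gave 1 library per group, so p-values measure only the spread between these 4 libraries. Within a group, that spread holds the difference between the isolates together with any technical one. With the isolate as a block, what remains may be technical. The 4 libraries then leave little to estimate a gene's own spread, and p-values lean on spread shared across genes. An exact two-sided permutation test of 2 against 2 cannot give a p below 0.333.

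**Figure D1:**
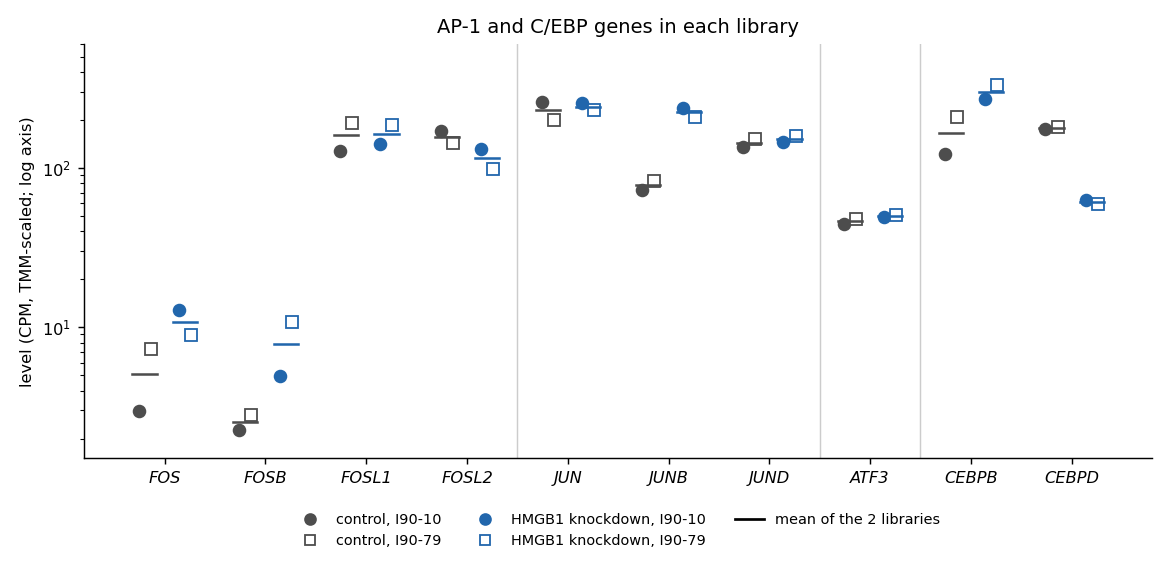
Level of each member in each library (CPM on a log axis), control libraries in grey and HMGB1 knockdown libraries in blue, circles for I90-10, squares for I90-79 and bars for the mean of the 2 libraries of a group. FOS and FOSB sit below 13 CPM, the other members between 44.6 and 331 CPM, and the knockdown libraries of JUNB and CEBPD stand clear of the controls.

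Counted over the members, edgeR called 0 upregulated and 1 downregulated without a term for the isolate, where 0.0649% and 0.136% of all genes tested were called. DESeq2 called 2 members upregulated and 1 downregulated, against 4.73% and 5.31% of all genes. As both isolates occur in both groups, the fit was also made with the isolate as a replicate block. It called 3 members upregulated (FOSB, JUNB and CEBPB) and 1 downregulated (CEBPD), against 6.68% and 7.84% of all genes. An unadjusted p below 0.05 was found for 5 members (FOSB, FOSL2, JUNB, CEBPB and CEBPD), against 28.3% of all genes. Both knockdown libraries lay above both controls for 5 members and below for 2, and the groups overlapped for FOSL1, JUN and JUND. Over all genes, 29.8% lay wholly above and 30.2% wholly below. The change had the same sign in both isolates for 8 of 10 members, against 78.3% of all genes. The median log2-fold change of the members was 0.09, and that of all genes tested was -0.01. Without control replicate 2 the members' median was 0.25, without knockdown replicate 1 it was 0.18, and without control replicate 1 it was 0.16.

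**Figure D2:**
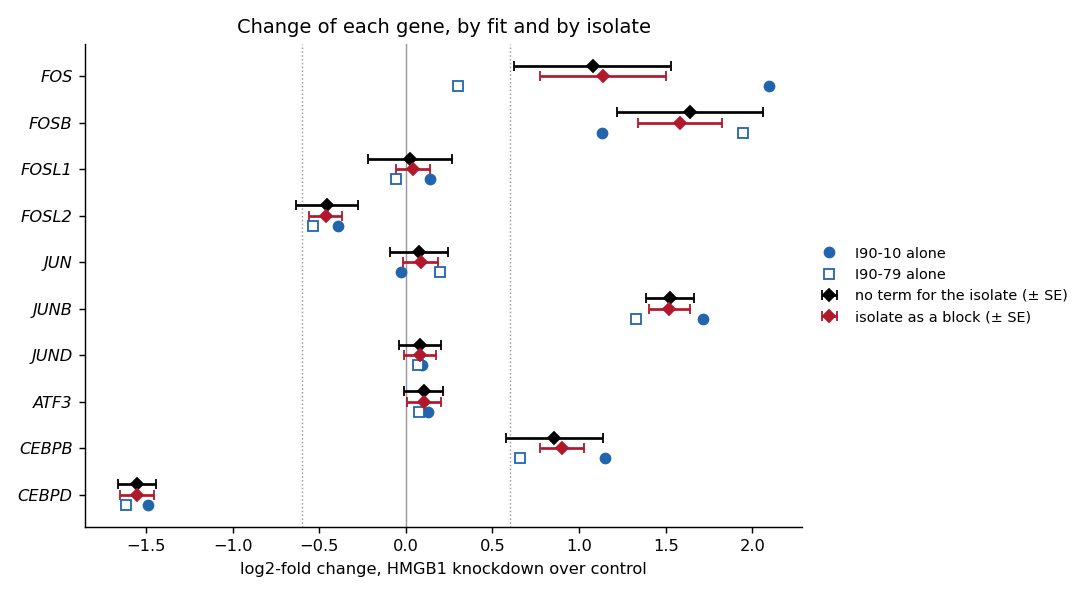
Log2-fold change of each member, with diamonds for the edgeR fit without a term for the isolate (black) and with the isolate as a block (red), bars for ± 1 SE, and blue symbols for I90-10 (circles) and I90-79 (squares) alone. Dotted lines mark the fold threshold of 0.6. The block shortened the error of CEBPB from 0.28 to 0.13, and FOS shows the widest gap between isolates, 2.10 against 0.30.

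FOS, the prototype of the family and a partner of every JUN protein, lies on chromosome 14 of hg19 (75745477 to 75748933). It had 2.96 CPM in control replicate 1 and 7.25 in control replicate 2, and 12.7 and 8.93 CPM in knockdown replicates 1 and 2. Both knockdown libraries were above both controls, with I90-79 control close below I90-79 knockdown. On the log2 scale FOS differed by 1.08 (SE 0.45, adjusted p = 0.195), and with the block by 1.14 (adjusted p = 0.0452), called in neither fit. In I90-10 the knockdown library was 4.30-fold higher and in I90-79 1.23-fold higher. Leaving out control replicate 1 lowered the difference to 0.58, and leaving out control replicate 2 raised it to 1.87. Of the reads behind these values, 87 were in the lowest and 368 in the highest library.

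FOSB, which like FOS is induced quickly and carries a strong activation domain, lies on chromosome 19 (45971253 to 45978437) and was the lowest of the members per length. It had 2.25 and 2.80 CPM upon control transfection and 4.95 and 10.8 CPM upon knockdown (2.52 ± 0.388 against 7.87 ± 4.13, SD, n = 2 each). The groups did not overlap, and the I90-79 knockdown library was the highest by a wide margin. The change of 1.64 on the log2 scale (SE 0.42, adjusted p = 0.0756) missed the threshold. With the isolate as a block it was 1.58 (SE 0.24, adjusted p = 0.0020), and FOSB was called upregulated, as it was by DESeq2. Leaving out knockdown replicate 2 gave 0.97 and leaving out knockdown replicate 1 gave 2.09.

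FOSL1, also called FRA1, lacks the strong activation domain of FOS and lies on chromosome 11 (65659520 to 65668044). Its levels were 128 and 193 CPM in the controls and 141 and 185 CPM in the knockdown libraries. The knockdown libraries fell inside the range of the controls, and both I90-79 libraries were above both I90-10 libraries. The log2 change of 0.02 (SE 0.24, adjusted p = 0.959) was smaller than the spread between replicates, and with the block it was 0.04 (adjusted p = 0.787). Its sign turned without control replicate 1 (-0.24) and without knockdown replicate 2 (-0.18). A pseudogene named FOSL1P1 exists, with which reads of FOSL1 could be shared.

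FOSL2, or FRA2, is the other FOS-related factor without that domain, on chromosome 2 (28615315 to 28640179). It was at 171 and 143 CPM in the controls and at 131 and 98.9 CPM upon knockdown. Each knockdown library was below both controls, and in each group I90-79 was the lower. FOSL2 differed by -0.46 on the log2 scale (SE 0.18, adjusted p = 0.174). With the block it was -0.46 (SE 0.10, adjusted p = 0.0078), which passes the p threshold but is smaller than the fold threshold, so FOSL2 was not called. Its 3′ UTR of 4869 bases holds 1 copy of GCAGTT, a word known from earlier results of these data to go with lower levels. The site is printed with 12 bases on each side, the word in capitals.
FOSL2 3′ UTR (hg19 chr2:28637327-28637356, plus strand): taagaagattggGCAGTTgggtttctggct

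Of the other members, CEBPD held 1 copy of this word in its 3′ UTR, and FOS, FOSB, FOSL1, JUN, JUNB, JUND, ATF3 and CEBPB held 0. The 2 members with the word are the 2 whose knockdown libraries lay below both controls. Across the 12556 tested genes whose 3′ UTR has 100 bases or more in the GENCODE annotation lifted to hg19, 37.9% held the word. The median log2-fold change was 0.07 for genes with 0 copies, -0.08 with 1, -0.21 with 2 and -0.28 with at least 3, while the median UTR grew from 1004 to 5368 bases over the same classes. In the fit with the block, 4.18% of genes without the word and 16.8% of genes with it were called downregulated. The word was taken from earlier results of these same data. The match in the 2 members and these medians and shares are therefore no independent check of it. The part of the word, or of UTR length, in the changes of FOSL2 and CEBPD was not tested.

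JUN, the strongest activator of its family and itself an AP-1 target, is a single-exon gene on chromosome 1 (59246465 to 59249785). It had 259.7 and 200.2 CPM in the controls and 255 and 229.7 CPM upon knockdown. The knockdown values lay between the controls, and I90-10 was the higher isolate in both groups. The log2-fold change was 0.07 (SE 0.17, adjusted p = 0.805) and 0.09 with the block (adjusted p = 0.554). It turned to -0.10 without control replicate 2 and to -0.0011 without knockdown replicate 1.

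JUNB, an immediate-early gene whose protein is a weaker activator and can oppose JUN, has a single exon on chromosome 19 (12902310 to 12904124). Control libraries had 72.8 and 82.7 CPM, knockdown libraries 239 and 208 CPM (77.8 ± 6.98 against 224 ± 22.5, SD, n = 2 each). The knockdown libraries stood far above the controls, by 3.29-fold in I90-10 and 2.51-fold in I90-79, and the libraries of each group were close. The log2-fold change of 1.52 (SE 0.14, adjusted p = 0.0109) just missed the threshold of 0.01. With the block it was 1.52 (SE 0.12, adjusted p = 1.0e-04), and JUNB was called upregulated. Without control replicate 2 it was called without the block as well (1.62, adjusted p = 0.0059). Of its exonic bases, 14.3% (259) overlap HOOK2 on the opposite strand, and the strand setting of the counting is not given in the sources used here. HOOK2 itself had 7.54 to 10.1 CPM over the 4 libraries and a log2 change of 0.20 (adjusted p = 0.56).

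JUND, which most cells express without a stimulus, is a single-exon gene on chromosome 19 (18390563 to 18392432). It had 136 and 151 CPM in the controls and 145 and 159 CPM upon knockdown. The groups overlapped, and in both isolates the knockdown library was slightly higher. The log2-fold change was 0.08 (SE 0.12, adjusted p = 0.697).

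ATF3, a stress-induced bZIP protein that pairs with JUN proteins, lies on chromosome 1 (212738676 to 212794119). Its values were 44.6 and 47.8 CPM in the controls and 48.9 and 50.5 CPM upon knockdown. Both knockdown libraries were above both controls, by a margin that did not pass the test. The log2-fold change was 0.10 (SE 0.11, adjusted p = 0.588), and 0.10 with the block (adjusted p = 0.456).

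CEBPB, a regulator of IL6 and IL8 and of the secretory program of senescent cells, is a single-exon gene on chromosome 20 (48807376 to 48809212). It was at 122 and 209 CPM in the controls and at 270.2 and 331 CPM upon knockdown (166 ± 61.8 against 300.4 ± 42.7, SD, n = 2 each). The groups did not overlap, and I90-79 was above I90-10 in each. A log2 change of 0.86 (SE 0.28, adjusted p = 0.122) was below the threshold for a call. The block gave 0.90 (SE 0.13, adjusted p = 0.0014), at which CEBPB was called upregulated. It was 0.52 when control replicate 1 was left out and 1.30 when control replicate 2 was.

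CEBPD, a C/EBP factor of the acute phase response that is often induced together with CEBPB, went the other way. It is a single-exon gene on chromosome 8 (48649471 to 48651648). Control libraries had 176 and 182 CPM and knockdown libraries 62.6 and 59.3 CPM (179 ± 4.52 against 60.9 ± 2.31, SD, n = 2 each). The 2 libraries of each group were nearly equal, and the groups were far apart. The log2-fold change was -1.55 (SE 0.11, adjusted p = 0.0099), and it was -1.49 in I90-10 and -1.62 in I90-79. With the block the adjusted p was 5.2e-05. The call without the block was lost when either knockdown library was left out (adjusted p = 0.0726 in both cases), at log2-fold changes of -1.59 and -1.52. CEBPD is the member with the smallest p, and the 5 tested genes nearest to it in their pattern over the 4 libraries, out of 13105 genes averaging 1 CPM or more, were DNAJA3, DDB1, RMND5A, C4orf46 and TMEM101. Their Euclidean distances in centred log2 CPM ranged from 0.0836 to 0.129.

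Levels of different genes were compared per length, as TPM (transcripts per 1000000) from the gene lengths in the files. Ordered by the mean of the control libraries, the members ran from CEBPB (276 and 488 TPM), FOSL1 (283 and 438), CEBPD (336 and 358), JUND (303 and 346) and JUN (326 and 258) down to JUNB (167 and 195), FOSL2 (99.6 and 85.9), ATF3 (46.4 and 51.2), FOS (3.81 and 9.59) and FOSB (1.68 and 2.16). The ranges of the 5 highest genes overlapped one another except that CEBPD lay above JUN, and from JUNB downwards no neighbouring ranges met. In the knockdown libraries CEBPB (577 and 735 TPM) and JUNB (518 and 467) were the highest, followed by FOSL1 (294 and 400), JUND (305 and 347) and JUN (301 and 282), while CEBPD had 113 and 111 TPM. These orders are descriptions and were not tested.

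The make-up of each family can be read from shares of its summed TPM. FOSL1 held 72.9% and 81.8% of FOS family transcripts in the controls and 76.5% and 84.1% upon knockdown, and FOS and FOSB together stayed the minor members. JUNB held 21.0% and 24.4% of JUN family transcripts in the controls and 46.1% and 42.6% upon knockdown, where it was the most abundant of the 3. The share of JUN went from 40.9% and 32.3% to 26.8% and 25.8%. Summed over the family, JUN family TPM was 796 and 799 in the controls and 1124 and 1096 upon knockdown. For the C/EBP pair, CEBPB held 45.2% and 57.7% in the controls and 83.7% and 86.9% upon knockdown. Its sum with CEBPD was 612 and 846 TPM in the controls and 690.3 and 846 TPM upon knockdown, so the sums overlapped while the shares did not. JUN family over FOS family TPM was 2.05 and 1.49 in the controls and 2.92 and 2.30 upon knockdown. With CPM in place of TPM, the mean share of FOSL1 over the 4 libraries was 51.9% in place of 78.8%, that of FOSL2 43.8% in place of 18.1%, and that of JUN 44.98% in place of 31.4%.

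**Figure D3:**
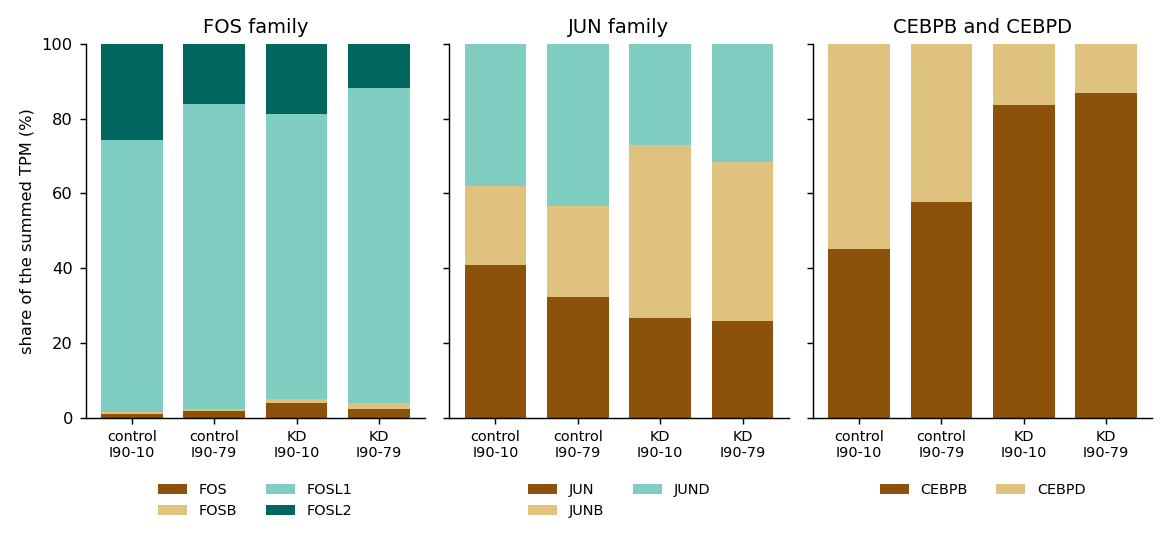
Share of each member in the summed TPM of its family (%, stacked to 100) in the 4 libraries, for the FOS family, the JUN family and the pair CEBPB and CEBPD (KD, HMGB1 knockdown). The JUNB band is 21.0% and 24.4% in the controls and 46.1% and 42.6% upon knockdown, and the CEBPB band reaches 86.9%.

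The isolates themselves were compared in the fit with the siRNA as a second term. No member was called by edgeR or by DESeq2, where 0.442% of all genes were called higher and 1.23% lower in I90-79, and 5 members had an unadjusted p below 0.05, against 22.2% of all genes. FOSL1 was 1.404-fold higher in I90-79 (log2 difference 0.49, SE 0.10, adjusted p = 0.027) and CEBPB 1.45-fold higher (0.53, SE 0.13, adjusted p = 0.0469). FOSB was 1.71-fold higher (0.78, SE 0.24, adjusted p = 0.102), FOSL2 0.80-fold (-0.33, SE 0.09, adjusted p = 0.0866) and JUN 0.83-fold (-0.26, SE 0.10, adjusted p = 0.17). JUNB and CEBPD, the members with the largest changes at moderate to high levels, differed between isolates by -0.01 each on the log2 scale. With 1 library per isolate and group, whether the effect of the knockdown differs between isolates was not tested.

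The AP-1 and C/EBP proteins act with other bZIP partners. For this list and those that follow, the shares of all genes are again 28.3% at an unadjusted p below 0.05, and with the block 6.68% upregulated and 7.84% downregulated. The lists were chosen with earlier results of these data known, so a higher share in a list is no independent check. Of 33 partner genes 28 were tested, with 0 called by edgeR (10, or 35.7%, at an unadjusted p below 0.05), 1 upregulated and 4 downregulated by DESeq2, and a median log2 change of 0.01. The block called 2 (7.14%) upregulated (CREM and BATF2) and 5 (17.9%) downregulated (ATF2, ATF7, JDP2, TEF and CREB3L1), of which all but ATF2, ATF7 and CREM were named after their values were seen. ATF2, which pairs with JUN and is activated by stress kinases, had 44.6 and 36.6 CPM in the controls and 11.2 and 13.96 CPM upon knockdown, a log2 change of -1.69 (adjusted p = 0.0139, and 2.1e-04 with the block). Its close relative ATF7 had 34.5 and 31.5 CPM against 13.3 and 10.9 CPM, or -1.45 (adjusted p = 0.0144, and 1.3e-04 with the block). JDP2, a repressor that pairs with JUN proteins, had 43.7 and 19.8 CPM against 9.80 and 6.37 CPM, or -1.97 (adjusted p = 0.0551, and 1.3e-04 with the block). CREM, a cAMP-responsive factor with activator and repressor forms, was the third of the list by p, at 0.92 (adjusted p = 0.0398, and 5.3e-04 with the block).

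The word GCAGTT was counted in the 3′ UTRs of these partners too, with 4 copies in ATF2, 2 in ATF7, 3 in JDP2 and 0 in CREM. Of the 14 tested partners that hold it, the block called 4 downregulated (TEF, with 1 copy, is the fourth) and 1 upregulated (BATF2, with 1 copy), and 9 were not called. Among those 9, CREB1 held 6 copies at a log2 change of -0.27, and NFE2L2, CREB5 and NRL held 2 each at 0.37, 0.25 and 0.50. Of the 14 partners without it, 1 was downregulated (CREB3L1) and 1 upregulated (CREM). These further partners were named after their values were seen. For ATF2, ATF7 and JDP2, the copy nearest the stop codon is printed here, with SRF, which holds 2, in the same way (hg19, 5′ to 3′ on the strand of the gene, the word in capitals). The part of these sites in the lower levels was not tested.
ATF2 (chr2:175939169-175939198, minus strand): gttggtgtagcaGCAGTTgatcagactgaa
ATF7 (chr12:53909319-53909348, minus strand): gctctgaactatGCAGTTtctaccaggacc
JDP2 (chr14:75937302-75937331, plus strand): attaagccacctGCAGTTactattttgaga
SRF (chr6:43147295-43147324, plus strand): tcctctgaggaaGCAGTTggggccctcttg

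Upstream of the immediate-early members lie the MAP kinases and SRF with its TCF partners, which bind the promoter of FOS and related genes. All 25 genes of this list were tested, with 0 called by edgeR (8, or 32%, at an unadjusted p below 0.05), 1 upregulated and 3 downregulated by DESeq2, and a median log2 change of 0.05. With the block 2 (8%) were upregulated (MAPK11 and MAP2K6) and 4 (16%) downregulated (MAPK9, SRF, ELK4 and MKL2), and MAPK11, MAP2K6 and MKL2 were named after their values were seen. SRF had 148 and 121 CPM in the controls and 63.4 and 59.8 CPM upon knockdown, a log2 change of -1.13 (adjusted p = 0.0175, and 1.8e-04 with the block). ELK4, a TCF that binds together with SRF, was at -0.96 (adjusted p = 0.0358, and 5.9e-04 with the block), with 6 copies of GCAGTT in its 3′ UTR. MAPK9, a JUN kinase also called JNK2, had 45.9 and 46.0 CPM against 23.03 and 23.38 CPM, or -0.99 (adjusted p = 0.0151, and 3.5e-04 with the block), with 1 copy. MAP2K6, called upregulated with the block (log2 change 1.15 without it), holds 4 copies. Of the 11 genes of this list with the word, the block called 4 downregulated and 1 upregulated, and of the 14 without it 0 and 1. FOS and FOSB had higher values in the same knockdown libraries in which SRF and ELK4 had lower ones. FOS was not called in either fit, and a link between these RNA levels was not tested.

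Other immediate-early genes served as a comparison. Of 25 listed, 23 were tested, with 0 called by edgeR (11, or 47.8%, at an unadjusted p below 0.05), 2 upregulated and 1 downregulated by DESeq2, and a median log2 change of 0.30. The block called 5 (21.7%) upregulated (EGR2, IER2, TRIB1, IER3 and MCL1) and 1 (4.35%) downregulated (CYR61). EGR2, a zinc-finger factor, had 3.27 and 3.36 CPM in the controls and 13.7 and 13.4 CPM upon knockdown, a log2 change of 2.03 (adjusted p = 0.0104, and 1.3e-04 with the block). CYR61, a secreted matrix protein and target of SRF and YAP, had 376 and 267 CPM against 88.0 and 56.6 CPM, or -2.15 (adjusted p = 0.0195, and 1.8e-05 with the block). IER2 was at 0.64 (adjusted p = 0.0649, and 0.0030 with the block). TRIB1 (log2 change 0.75), IER3 (1.57) and MCL1 (0.80) were named after their values were seen. Of the 10 tested genes of this list with GCAGTT in the 3′ UTR, the block called 0 downregulated and 2 upregulated. Among the 13 without it, 1 was downregulated and 3 were upregulated, and the median log2 changes were 0.40 with the word and 0.26 without. In the other related lists the median with the word was the lower one. It was -0.10 against 0.04 for the bZIP partners and -0.23 against 0.17 for the upstream genes. For AP-1 targets it was -0.20 against 1.43, for C/EBP targets -0.77 against 0.40 and for the interferon genes 0.55 against 0.80. None of these differences was tested.

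Among known AP-1 targets, 18 of 20 were tested, with 0 called by edgeR (7, or 38.9%, at an unadjusted p below 0.05), 3 upregulated and 1 downregulated by DESeq2, and a median log2 change of 0.78. The block called 9 (50%) upregulated and 1 (5.56%) downregulated (HBEGF, an EGF receptor ligand, named after its value was seen). MMP10, a stromelysin, had 1.6 and 5.73 CPM in the controls and 42.7 and 64.3 CPM upon knockdown, a log2 change of 3.85 (adjusted p = 0.0272, and 5.2e-05 with the block). SPP1, the phosphoprotein osteopontin, was at 2.53 (adjusted p = 0.0257, and 0.0016 with the block) from levels of at most 2.84 CPM. TIMP1, an inhibitor of metalloproteinases, had 1221 and 1222 CPM against 2519.5 and 1884 CPM, or 0.85 (adjusted p = 0.0597, and 0.0016 with the block). GCAGTT was held by 6 tested genes of this list, of which the block called 0 downregulated and 1 upregulated. Among the 12 without it, 1 was downregulated and 8 were upregulated. In the comparison of the isolates, 3 genes of the list were called higher in I90-79 (MMP3, PTGS2 and IL8, named after their values were seen), against 0.442% of all genes.

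For C/EBP targets, 14 of 19 were tested, with 0 called by edgeR (2, or 14.3%, at an unadjusted p below 0.05) and 2 upregulated and 0 downregulated by DESeq2. The median log2 change was 0.36, or 0.93 with the block, which called 6 (42.9%) upregulated and 0 downregulated. Without the block, 9 genes of the list had a higher and 5 a lower value upon knockdown. Among the lower ones were IL6 (-1.14, adjusted p = 0.235, and -0.93 at 0.0385 with the block), CCL2 (-0.77) and C3 (-0.56). These were named after their values were seen, and neither fit called them. TNFAIP6, a hyaluronan-binding protein, had 16.6 and 35.4 CPM in the controls and 76.9 and 98.5 CPM upon knockdown, a log2 change of 1.75 (adjusted p = 0.0507, and 2.0e-04 with the block). CXCL6, a neutrophil chemokine, was at 1.07 (adjusted p = 0.0718, and 0.0015 with the block). CDKN1A, the cell cycle inhibitor p21, was at 0.31 (adjusted p = 0.229, and 0.0452 with the block), which did not pass. GCAGTT was held by 3 tested genes of this list, of which the block called 0 downregulated and 1 upregulated. Among the 11 without it, 0 were downregulated and 5 upregulated. In the comparison of the isolates, 3 genes of this list were also called higher in I90-79, against 0.442% of all genes. They were CXCL2, PTGS2 and IL8, named after their values were seen. The list's median log2 difference between isolates was 0.86, and that of the AP-1 targets was 0.40. IL6, IL8, CCL2 and PTGS2 stand in both target lists, so their counts are not separate.

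Genes of the interferon response, which transfected RNA can set off, were counted because every library was transfected. Of 10 listed, 9 were tested, with 0 called by edgeR (7, or 77.8%, at an unadjusted p below 0.05) and 4 upregulated and 0 downregulated by DESeq2. With the block 6 (66.7%) were upregulated and 0 downregulated, and the median log2 change without it was 0.80. IFIT3 had 40.2 and 47.9 CPM in the controls and 131 and 131 CPM upon knockdown, a log2 change of 1.57 (adjusted p = 0.0104). IFIT2 was at 1.29 (adjusted p = 0.0104) and ISG15 at 1.37 (adjusted p = 0.0148). IFNB1 had at most 0.0271 CPM in any library. GCAGTT was held by 4 tested genes of this list, of which the block called 0 downregulated and 2 upregulated. Among the 5 without it, 0 were downregulated and 4 upregulated. The summed level of the list was 239 and 264 CPM in the controls and 561 and 525 CPM upon knockdown, and its part in the changes of JUNB, FOSB, CEBPB and CEBPD was not tested.

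**Figure D4:**
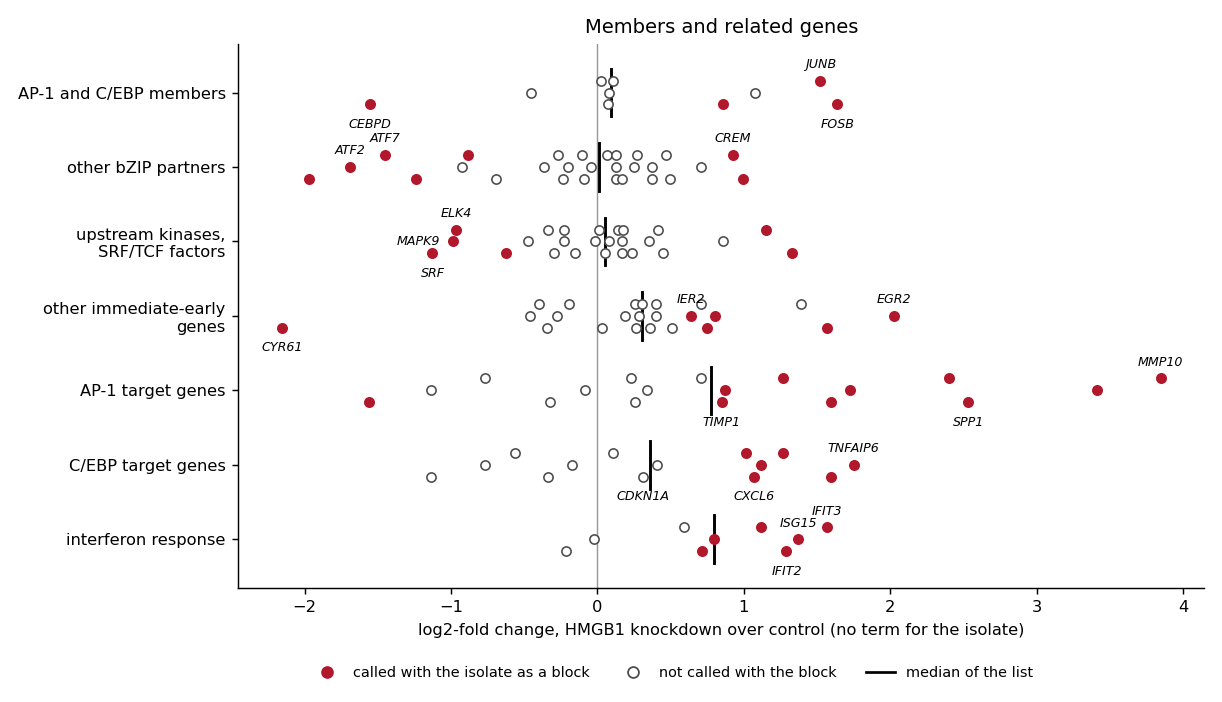
Log2-fold change (fit without a term for the isolate) of each tested gene in the members and 6 related lists, with 1 point per gene, red where the fit with the isolate as a block called the gene, and a bar at the list's median. The medians run from 0.01 for the other bZIP partners to 0.78 for AP-1 targets and 0.80 for the interferon list, and the members split to both sides of 0.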

How the data were processed

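Poly(A) RNA of 4 libraries was sequenced paired-end after TruSeq preparation. For each library the authors aligned to hg19 (STAR), counted uniquely placed reads by gene (featureCounts) and deposited these raw counts, for 63677 genes, with a length for each gene. Tool versions and strand setting are not given in the sources used here. Raw counts were tested with edgeR 4.0.16 (limma 3.58.1, R 4.3.3) over all 4 libraries, after filterByExpr (15398 genes) and TMM scaling, with the quasi-likelihood test and Benjamini-Hochberg adjustment. The thresholds (0.01 for the adjusted p, 0.6 for the log2 change in either direction) follow the study's methods. CPM and TPM were computed from the deposited counts, and 0.5 counts were added before the log2 changes of single isolates. Depth was 29861687 to 35317010 counted reads per library.

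Replicate numbers mark the isolates, so they pair the libraries, and the difference between replicates in control correlated at 0.46 with that in knockdown across genes. The authors' order of steps, RUVs and then DESeq2 (1.42.0 here), was run with 1 factor. Other alternatives were DESeq2, the replicate block, other scaling and filters, a looser threshold and leaving out each library. The fits were tested on simulated data. The 10 members and the related lists were chosen with earlier results of these data known. The rule named the members, HMGB1, the 3 genes with the smallest p of each list, and the 5 nearest in pattern to CEBPD. Other genes, such as JDP2, were named after their values were seen, HOOK2 for its overlap with JUNB, and some markers by their levels. Symbols came from a reference table of gene names. No outlier test was made in groups of 2.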

Additional observations from a re-analysis of the deposited data

Results flagged for a closer look

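FOSL1 and JUN had values of opposite sign in the isolates, and neither passed a test of the knockdown. The log2 change of FOSL1 was 0.1418 in I90-10 and -0.0595 in I90-79, and that of JUN was -0.0285 in I90-10 and 0.1987 in I90-79. With 1 library per isolate and group, neither difference was tested.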

How the results depend on the processing

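Members called upregulated, 0 in edgeR without the isolate, numbered 3 with the replicate block (FOSB, JUNB and CEBPB), 2 with DESeq2 (FOSB and JUNB), 3 with DESeq2 and the block, 2 with RUVs and DESeq2 (JUNB and CEBPB), 4 without the filter on low counts (FOS, FOSB, JUNB and CEBPB) and 1 at an adjusted p below 0.05 (JUNB). They ranged from 0 to 1 when a library was left out. The member called downregulated, CEBPD, crossed the threshold (0 members) with DESeq2 size factors (-1.55, adjusted p = 0.0101) and with at least 10 counts in every library (-1.56, adjusted p = 0.0102), against -1.55 at 0.0099 as reported, and the count ranged from 0 to 1 when a library was left out. The members' median log2-fold change was 0.0971 with DESeq2 and with its size factors, 0.0986 with DESeq2 and the block, 0.1491 with RUVs, 0.1001 with upper-quartile factors, 0.1014 without the filter, 0.0863 with at least 10 counts, and 0.1122 to 0.2542 with a library left out. FOSL1 turned to -0.2166 with RUVs and ranged from -0.2406 to 0.349 with a library left out, and JUN ranged from -0.101 to 0.2746. Between isolates, 1 member was called higher without the filter (FOSB) and 2 at an adjusted p below 0.05 (FOSL1 and CEBPB). The causes were not tested.

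Over all genes, 10 were upregulated and 21 downregulated, against 1028 and 1207 with the block, 728 and 818 with DESeq2, 765 and 832 with RUVs, 1118 and 1275 without the filter, 6 and 16 with at least 10 counts, and 606 and 693 at an adjusted p below 0.05. Without control replicate 1 they were 41 and 73, without control replicate 2 they were 182 and 221, and without knockdown replicate 1 or 2 edgeR called 0 and 0 (3209 and 2742 genes at an unadjusted p below 0.05). A group left with 1 library was assumed to vary like the other. The block changed no other member's call. With 2 libraries per group, FOS and FOSB, with the fewest reads, had the widest errors.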
